A study of Mus musculus with 39 samples.

Results

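The tumour necrosis factor (TNF) superfamily was examined across mouse lymphomas as all genes whose symbol begins with Tnfsf, for the ligands, or Tnfrsf, for the receptors. Of 18194 named genes on the array, 26 met this rule and were measured by a probe set that names 1 gene. They were 7 ligand genes, 18 receptor genes and Tnfsf13os, a transcript from the strand opposite the ligand gene Tnfsf13. For each gene the probe set with the highest mean over all tumours was used. Tnfsf12, Tnfsf13 and Tnfsfm13 share their probe sets with other genes and 1 further receptor gene is not analysed here, so none of these 4 has a value.

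Ligands of this superfamily are mostly membrane proteins that form trimers, and many are also shed in soluble form. They bind receptors that recruit TRAF adaptor proteins and activate NF-kB, or that carry a death domain and can start apoptosis. In the B lineage the ligand BAFF, encoded by Tnfsf13b, supports the survival of mature B cells through the BAFF receptor, encoded by Tnfrsf13c, and also binds TACI (Tnfrsf13b) and BCMA (Tnfrsf17). OX40 (Tnfrsf4), 4-1BB (Tnfrsf9) and GITR (Tnfrsf18) are costimulatory receptors known best from T cells, and the receptors for TNF itself (Tnfrsf1a, Tnfrsf1b) are widely expressed, the latter mainly on blood cells and endothelium.

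The study profiled RNA from 39 lymphomas of Eµ-myc mice, which carry a Myc transgene driven by the immunoglobulin heavy chain enhancer and develop tumours of the B lineage. Mice were killed once they appeared ill or had signs of lymphoma, and the tumour tissue was frozen before RNA was extracted and put on 1 array per tumour. Every tumour has the same genotype and none is labelled as treated, and no normal tissue, age, sex or outcome is given, so all 39 form 1 group. Whether different tumours are from different mice is not in the labels, so p-values measure only the spread among these 39 samples, which may be partly technical. Tumours are called by the number in their label.

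Values are log2 expression levels after robust multi-array averaging (RMA), in which background is corrected, arrays are quantile normalized and the probes of a set are summarised. Array medians lay between 5.61 and 5.78, and the mean correlation of an array with the others ran from 0.912 (tumour 6) to 0.973. Levels of different probe sets cannot be set against each other, so every comparison below is of 1 gene across tumours. In whole tumour tissue, fewer cells of a type and less RNA per cell cannot be told apart.

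Several tumours stood apart in the markers of cell types. In tumours 6, 8 and 23 Cd79a, a component of the B cell receptor, was at 3.95, 4.05 and 4.18 against a median of 9.39, while its partner Cd79b was at 12.03, 12.51 and 11.70 against a median of 12.41. The pan B cell score over 11 measured markers was −2.39, −1.95 and −2.37 in these 3 tumours. To make a score, each gene of a list is centred on its mean log2 level over the tumours and the centred levels are averaged, so 0 is the average tumour. The macrophage marker Adgre1 was at 13.05, 13.12 and 12.55 in the same 3 tumours against a median of 8.36, and 11, 9 and 9 of 14 macrophage markers were above their own median. Tumours 2 and 27 had the highest T cell scores, 2.82 and 2.04, with 12 and 11 of 12 markers above their median, and Cd3d, a subunit of the T cell receptor complex, was at 11.37 and 10.70 against a median of 6.77. Tumour 2 also had the highest macrophage score (1.52), the highest NF-kB target score (1.88) and the lowest G2/M proliferation score (−2.55) of the 39. The pan B cell scores of tumours 2 and 27 were 0.37 and 0.16.

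The family varied more between tumours than most genes. The standard deviation (SD) of the log2 level reached 1 for 6 of the 26 members, against 7.33% of all genes, and reached 0.5 for 15 of the 26, against 27.7% of all genes. The median SD was 0.65 for the members and 0.32 for all genes. Only Tnfsf9 still reached an SD of 1 without the 7 tumours that were poor in B cell transcripts or Myc. That count is not set against all genes, so whether the family varied more than most genes in the smaller set was not tested. The tumours left out were 2, 5, 6, 8, 19, 23 and 26. Poor meant that pan B cell markers scored below −1 or that Myc lay below 10. Tumours 5, 6, 8, 19, 23 and 26 scored −1.21 or lower. Tumour 2 scored 0.37 and was left out for its Myc level alone. That level, 8.19, was the lowest of the 39, against a median of 11.92. The share of lymphoma cells in tumour 2 was not tested. Tumour 2 held one of the 3 highest levels for 13 members, tumour 27 for 13, tumour 8 for 8, tumour 6 for 7 and tumour 18 for 6. Tumour 2 was the highest of all tumours for 6 members and for 8.02% of all genes, and tumour 27 for 5 members and 1.86% of all genes. Tumours 8, 6 and 18 were the highest for 4, 1 and 4 of the 26 members, and for 8.90, 9.08 and 3.06% of all genes. Top 3 levels were not counted over all genes. Whether they gathered in these tumours more for the family than for other genes was thus not tested.

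**Figure D1:**
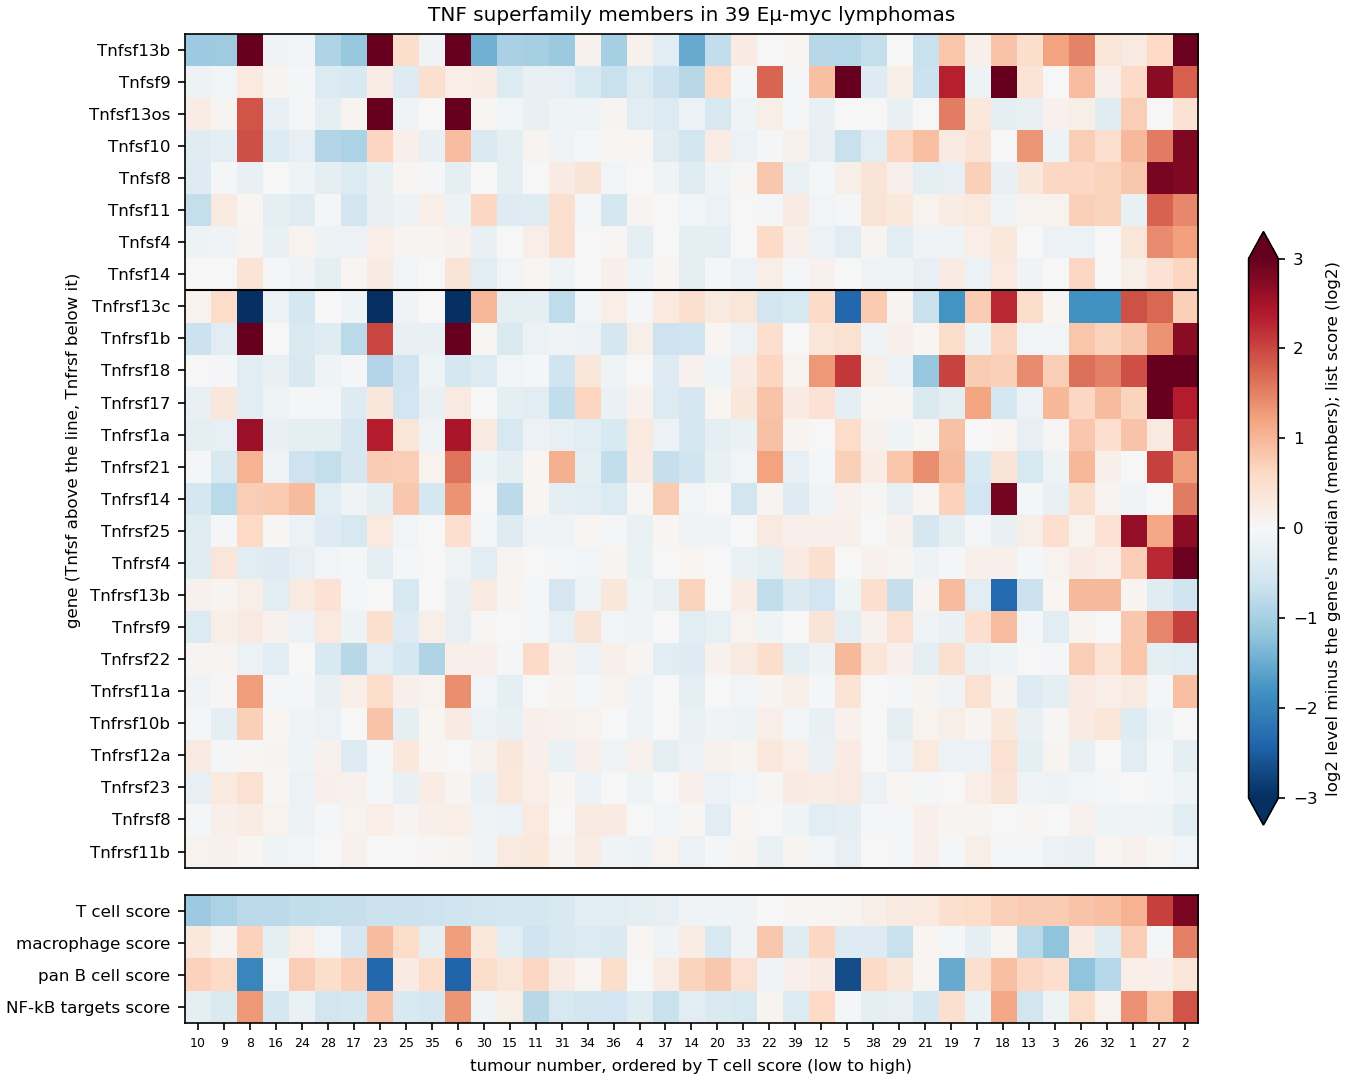
Log2 level minus the gene's median for the 26 members (rows, ligands and Tnfsf13os above the line) in 39 tumours (columns, ordered by T cell score), with 4 list scores below; the colour scale ends at 3 in each direction. Tumours 6, 8 and 23 are dark blue for Tnfrsf13c and dark red for Tnfsf13b and Tnfrsf1b, and tumours 2 and 27, at the right, are red for Tnfrsf18, Tnfrsf4, Tnfsf8 and Tnfrsf17.

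Promoter sequence is shown for some members whose levels carry the patterns described next. The BAFF receptor gene Tnfrsf13c was low in 3 tumours, and the BAFF gene Tnfsf13b and the TNF receptor gene Tnfrsf1b were high in the same 3 tumours. Tnfrsf4, Tnfrsf9 and Tnfrsf17 were highest in tumours 2 and 27. Tnfrsf1a and Tnfrsf18 carried the same patterns and are not printed. The sequences come from RefSeq on build GRCm38.p6, cover the 120 bases before an annotated transcription start and are read 5′ to 3′ on the strand of the gene. Capitals mark matches to the motifs searched, and lower case is used for the rest.
Tnfrsf13c, chr15:82224381-82224500, minus strand: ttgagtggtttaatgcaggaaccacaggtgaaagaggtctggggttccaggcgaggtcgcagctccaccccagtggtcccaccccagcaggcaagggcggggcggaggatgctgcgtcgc
Tnfsf13b, first of 2 starts, chr8:10006347-10006466, plus strand: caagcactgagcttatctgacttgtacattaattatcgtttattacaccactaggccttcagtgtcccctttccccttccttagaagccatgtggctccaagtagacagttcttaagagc
Tnfrsf1b, chr4:145246871-145246990, minus strand: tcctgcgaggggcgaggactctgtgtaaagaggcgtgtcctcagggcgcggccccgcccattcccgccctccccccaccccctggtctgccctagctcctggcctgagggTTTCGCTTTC
Tnfrsf4, chr4:156013575-156013694, plus strand: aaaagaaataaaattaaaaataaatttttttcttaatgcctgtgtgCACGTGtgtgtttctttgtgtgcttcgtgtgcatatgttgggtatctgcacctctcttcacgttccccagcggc
Tnfrsf9, second of 2 starts, chr4:150927879-150927998, plus strand: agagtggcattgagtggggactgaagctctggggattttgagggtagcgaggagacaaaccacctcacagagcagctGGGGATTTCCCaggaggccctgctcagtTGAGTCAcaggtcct
Tnfrsf17, chr16:11313689-11313808, plus strand: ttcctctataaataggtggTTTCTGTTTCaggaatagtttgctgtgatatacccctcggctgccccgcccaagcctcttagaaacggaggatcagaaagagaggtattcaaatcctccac

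The motifs were searched on both strands from 250 bases before to 50 bases after each start, in 23 promoters of the 20 members that RefSeq lists. The kappaB consensus, the binding motif of NF-kB, was found in promoters of 2 members, Tnfrsf9 and Tnfrsf8, and in 4.51% of 32851 promoters of all genes. In Tnfrsf9 the capitals GGGGATTTCCC hold overlapping matches, and an AP-1 motif (TGANTCA, the letters bound by Fos and Jun proteins) follows closer to the start. Both lie before the second start of Tnfrsf9, and the window of its first start, not printed here, held no match to any motif searched. AP-1 motifs were found for 4 members and in 7.81% of all promoters. The E-box CACGTG, the motif of Myc and related factors, was found for Tnfrsf4, Tnfrsf8 and Tnfrsf21 and in 7.15% of all promoters. An interferon response element (GAAA, then any 2 bases, then GAAA) was found for Tnfrsf1b, Tnfrsf14, Tnfrsf17 and Tnfsf13b, in the last before its second start, and in 3.44% of all promoters. No motif searched was found in the window of Tnfrsf13c, or in those of Tnfrsf1a and Tnfrsf18, which are not printed. A match describes the letters only and no binding was measured.

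Among the members of the BAFF system, the receptor gene Tnfrsf13c had the widest spread of the family. Its level ran from 3.56 in tumour 8 through a median of 10.07 to 12.33 in tumour 18, a range of 437-fold, and its mean was 9.64 ± 1.86 (SD, n = 39). Tumours 8, 23 and 6, at 3.56, 4.40 and 4.55, formed a low part that did not overlap the other 36 tumours, whose lowest value was 7.71 in tumour 5. Tumours 26, 32 and 19 came next at 8.25, 8.26 and 8.29. These were tumours with little B cell transcript or with a high level of Siglech, a surface protein of plasmacytoid dendritic cells: tumours 5, 26, 32 and 19 had Siglech levels of 11.30, 9.52, 12.54 and 10.96, against a median of 5.99. The score over 6 measured markers of these cells was 2.56, 0.68, 3.28 and 0.56, with 6, 4, 5 and 4 markers above their median. Tumours 4, 2, 13 and 22 scored higher than tumour 26, at 1.24, 0.91, 0.76 and 0.72. Their Tnfrsf13c was at 10.02, 10.78, 10.63 and 9.50. The part of plasmacytoid dendritic cells in the Tnfrsf13c level was not tested.

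The ligand gene Tnfsf13b was high where its receptor gene was low. Its level was 4.56 in the lowest tumour (14), 6.06 at the median and 10.39 in tumour 8. Tumours 8, 23, 6 and 2, at 10.39, 10.12, 9.86 and 9.01, formed a high part above the remaining 35 tumours, of which tumour 26 was highest at 7.54. BAFF is made mainly by myeloid and stromal cells. In these 4 tumours the macrophage score was 0.69, 0.94, 1.26 and 1.52. Tumours 22 and 1 scored above tumour 8, at 0.80 and 0.74, with Tnfsf13b at 6.06 and 6.33. The part of macrophages in the Tnfsf13b level was not tested. Within the 35 tumours of the low part, in which Tnfrsf13c also stayed in its high part, Tnfsf13b and Tnfrsf13c had a Pearson r of −0.045 (permutation p = 0.80) and a Spearman rho of −0.0056 (permutation p = 0.98), so the opposition between them was one between tumours 6, 8 and 23 and the rest. Tumour 2 was high for both, with Tnfrsf13c at 10.78, above the upper quartile of 10.59.

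TACI and BCMA did not follow the BAFF receptor. Tnfrsf13b, encoding TACI, was at 8.52 in tumour 18, the tumour with the highest Tnfrsf13c, and between 10.11 and 11.82 in the other 38 tumours. The 3 tumours with a low Tnfrsf13c lay within this range. Tnfrsf17, encoding BCMA, a receptor of plasma cells and plasmablasts, had a median of 4.74, a lowest value of 4.01 in tumour 31, and reached 8.53 in tumour 27 and 7.11 in tumour 2, above tumour 7 at 5.92. Tumours 27 and 2 also had the 2 highest plasma cell scores, 1.72 and 1.44, from 11 markers. Tnfsf13os had a median of 4.93 and reached 10.19, 8.83 and 6.81 in tumours 23, 6 and 8. It had 2 probe sets that correlated at only 0.20 across tumours, so this pattern rests on 1 of them.

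**Figure D2:**
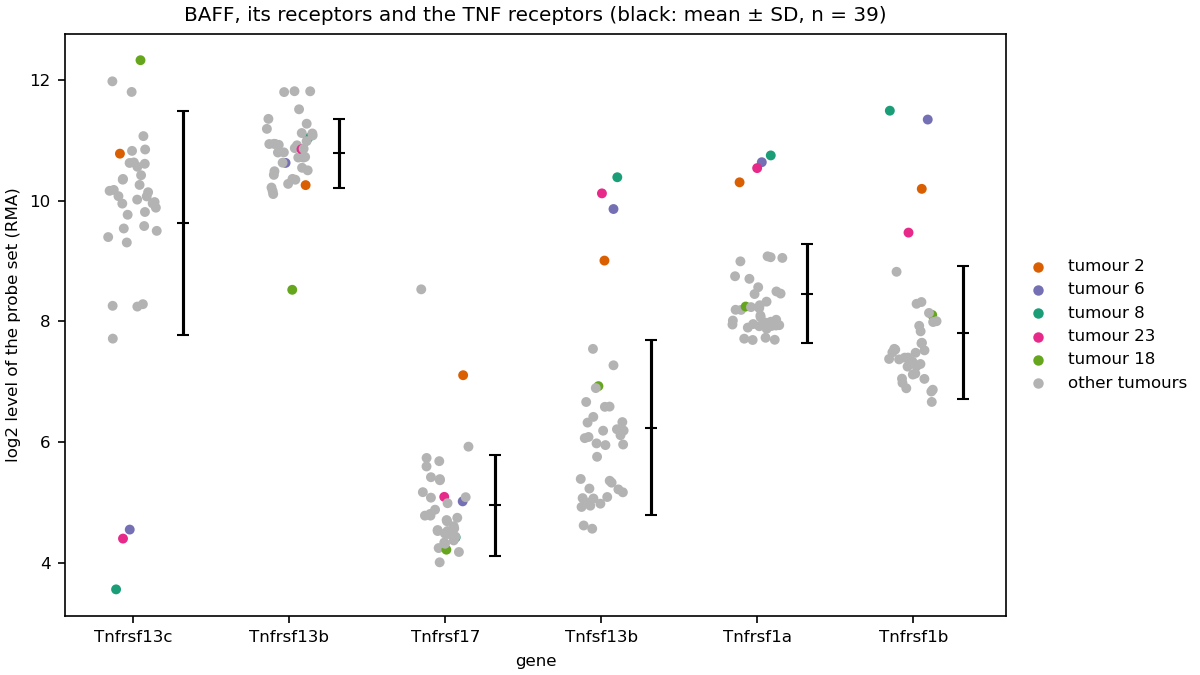
Log2 level of the probe set for 6 members in each of 39 tumours (points), with mean and SD in black; colours mark 5 tumours, and levels of different genes are not comparable. Tumours 6, 8 and 23 lie between 3.56 and 4.55 for Tnfrsf13c, and with tumour 2 they lie above all other tumours for Tnfsf13b, Tnfrsf1a and Tnfrsf1b, while tumour 18 is the lowest for Tnfrsf13b at 8.52.

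Both receptors for TNF were highest in the same 4 tumours. Tnfrsf1a, which carries a death domain, was at 10.75, 10.64, 10.54 and 10.31 in tumours 8, 6, 23 and 2, with a median of 8.19 and a highest value of 9.08 elsewhere. Tnfrsf1b, which signals through TRAF adaptors, was at 11.49, 11.35, 9.47 and 10.20 in the same tumours, with a median of 7.48 and a highest value of 8.82 elsewhere. The 2 genes also went together without them: within the other 35 tumours r was 0.768 (permutation p = 1e-05, the smallest that 100000 draws can give; adjusted p = 0.00011) and rho was 0.772 (permutation adjusted p = 0.00023). Leaving out the 2 of these tumours farthest from the Tnfrsf1a median gave an r of 0.767. Tnfrsf11a, encoding RANK, the receptor that drives osteoclast formation, was at 6.69, 6.56 and 6.19 in tumours 6, 8 and 2 and at most 5.84 elsewhere. Its ligand RANKL (Tnfsf11) had a different pattern, with 6.01 in tumour 27 and 5.66 in tumour 2 against a median of 4.23, and no relation to Tnfrsf11a was found in the 36 tumours of the lower Tnfrsf11a part (r = 0.022, permutation p = 0.90).

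The costimulatory receptors were highest in tumours 2 and 27, which had the 2 highest scores for T cells, for mature B cells (3.15 and 2.06) and for plasma cells (1.44 and 1.72). Tnfrsf18 (GITR) ran from 5.36 in tumour 21 through a median of 6.51 to 10.17 in tumour 2, with 9.50 in tumour 27 and 8.62 in tumour 5. Tnfrsf4 (OX40) was at 9.61 in tumour 2 and 8.95 in tumour 27, above tumour 1 at 7.43 and a median of 6.68. For both genes tumours 2 and 27 lay above all others. Tnfrsf9 (4-1BB) was at 7.70 and 7.12 in tumours 2 and 27 with a median of 5.66, and of its 2 other probe sets 1 followed the chosen one (r = 0.890) and 1 did not (r = −0.11). Tnfrsf25 (DR3, a death domain receptor of T cells) had its highest levels in tumours 2, 1 and 27, at 6.95, 6.89 and 5.41, against a median of 4.26. Tnfrsf8 (CD30) hardly varied, with a range of 4.35 to 4.98.

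Among the ligands of these receptors, Tnfsf8 (the ligand of CD30) was at 8.11 and 8.04 in tumours 27 and 2, well above the next value of 6.06 in tumour 1 and the median of 5.25. Tnfsf4 (the ligand of OX40) was at 6.12 and 5.93 in tumours 27 and 2 with a median of 4.69. Tumours 2 and 27 were thus also the top 2 for both ligands. Tnfsf9, the ligand of 4-1BB, had another pattern. Tumours 18, 5, 27 and 19 were at 10.12, 9.81, 8.03 and 7.64, and the median was 5.31. These 4 tumours formed a high part, though tumour 2 was close below at 7.10. Tnfrsf14, encoding HVEM, was likewise highest in tumour 18, at 8.20 against 6.90 in tumour 2 and a median of 5.33. Its ligand LIGHT (Tnfsf14) ran only from 4.32 to 5.28.

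Of the genes tied to cell death, Tnfsf10, encoding TRAIL, which starts apoptosis through death receptors, ran from 4.54 in tumour 17 through a median of 5.50 to 8.31 in tumour 2. The mouse TRAIL death receptor gene Tnfrsf10b varied less, from 3.68 to 4.90, with its highest value in tumour 23. Of the genes of the decoy receptors, which bind TRAIL without a death domain, Tnfrsf22 ranged from 4.28 to 6.16 (SD 0.41) and Tnfrsf23 from 3.48 to 4.19 (SD 0.18). Tnfrsf21 (DR6), a further death domain receptor, reached 8.54 in tumour 27 from a median of 6.50. Tnfrsf12a, the receptor of TWEAK, ranged from 6.51 to 7.35, and Tnfrsf11b, encoding osteoprotegerin, a soluble decoy for RANKL, from 4.10 to 4.68. The SDs of Tnfrsf12a, Tnfrsf23, Tnfrsf8 and Tnfrsf11b were 0.21, 0.18, 0.16 and 0.14, below the median SD of all genes. The probe sets of Tnfrsf11b correlated at −0.10, and those of Tnfrsf22 correlated with the chosen one at 0.287 and −0.11, so little weight can be put on their values.

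The members were then followed along scores of cell types and processes. Slopes are differences in log2 level per SD of the score, given ± SE and fitted for every gene with limma over 39 tumours, with p-values adjusted over all genes by the Benjamini-Hochberg method and a threshold of 0.05. A gene that forms part of a score was not tested along it. The 5 fits use the same tumours, tumour 2 is at the end of all 5 scores, and the scores are correlated, so the fits are not independent of each other. Over the 39 tumours the G2/M proliferation score had a Pearson r of −0.853 with the NF-kB target score and −0.708 with the macrophage score, and the last 2 had an r of 0.697 with each other.

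Along the T cell score, 11 of the 26 members rose, against 7.57% of all genes. None fell by limma, against 9.01% of all genes, and at an unadjusted p under 0.05 only Tnfrsf8 had a negative slope. Among receptors the steepest was Tnfrsf18 (0.89 ± 0.09, limma adjusted p = 5.9e-09), followed by Tnfrsf17 (0.60 ± 0.09), Tnfrsf4 (0.51 ± 0.06), Tnfrsf25 (0.45 ± 0.08) and Tnfrsf9 (0.34 ± 0.06). The ligands that rose were Tnfsf9 (0.59 ± 0.18), Tnfsf8 (0.59 ± 0.06), Tnfsf10 (0.49 ± 0.09), Tnfsf11 (0.35 ± 0.05), Tnfsf4 (0.22 ± 0.05) and Tnfsf14 (0.11 ± 0.03). The members that rose thus held all 3 costimulatory receptors named above and every measured ligand except Tnfsf13b. Without tumours 2 and 27, 3 members rose, against 1.77% of all genes: Tnfrsf18 (0.58 ± 0.10, limma adjusted p = 0.00032), Tnfsf8 (0.22 ± 0.05) and Tnfrsf4 (0.13 ± 0.04). Other scores moved with this one: over the 39 tumours the T cell score had a Pearson r of 0.819 with the plasma cell score and 0.651 with the mature B cell score, all taken from the same arrays. Tnfrsf18 had an r of 0.838 with the T cell score and 0.866 with the plasma cell score. Whether the transcripts came from T cells, plasma cells or the lymphoma cells was not tested.

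Along the B cell stage score, the difference between the precursor and the mature B cell scores, which is high where precursor genes prevail, 9 members fell, against 6.64% of all genes. None rose by limma, against 9.31% of all genes, and at an unadjusted p under 0.05 only Tnfrsf8 had a positive slope. The 9 were Tnfrsf18 (−0.79 ± 0.11, limma adjusted p = 3.3e-05), Tnfsf9 (−0.72 ± 0.17), Tnfrsf4 (−0.41 ± 0.08), Tnfrsf17 (−0.40 ± 0.12), Tnfrsf25 (−0.37 ± 0.09), Tnfsf8 (−0.36 ± 0.10), Tnfrsf9 (−0.28 ± 0.07), Tnfsf4 (−0.18 ± 0.05) and Tnfsf14 (−0.13 ± 0.03). Tumours 2 and 27 had stage scores of −4.01 and −2.77, and without them only Tnfrsf18 and Tnfsf9 fell, against 1.92% of all genes. With the T cell, macrophage and fibroblast scores as covariates only Tnfrsf18 did (−0.54 ± 0.11, limma adjusted p = 0.019), against 0.198% of all genes. The BAFF receptor gene Tnfrsf13c, whose protein appears as B cells mature, had a slope of −0.49 ± 0.29 that did not pass the threshold (limma adjusted p = 0.25). Without the 7 tumours poor in B cell transcripts or Myc it did fall (−0.54 ± 0.10, limma adjusted p = 0.0011).

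Along the macrophage score, 10 members rose, against 14% of all genes, and none fell by limma, against 14.8%. At an unadjusted p under 0.05 only Tnfrsf13c had a negative slope. The BAFF ligand gene Tnfsf13b was the steepest (0.75 ± 0.20, limma adjusted p = 0.0034), then came the TNF receptors Tnfrsf1b (0.70 ± 0.14) and Tnfrsf1a (0.59 ± 0.09), with Tnfsf13os at 0.60 ± 0.15. Tnfsf10, Tnfrsf21, Tnfrsf25, Tnfrsf14, Tnfrsf11a and Tnfsf14 rose by 0.33 to 0.11. These results rest on few tumours: without tumours 2, 6 and 8, the 3 arrays least like the others, only Tnfrsf1a rose (0.31 ± 0.08, limma adjusted p = 0.026), against 2.10% of all genes. Without the 7 tumours poor in B cell transcripts or Myc none did by limma, against 0.787% of all genes, with 1 (Tnfrsf1a) at an unadjusted p under 0.05, and the slope of Tnfsf13b turned to −0.11 ± 0.12 (limma adjusted p = 0.71).

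**Figure D3:**
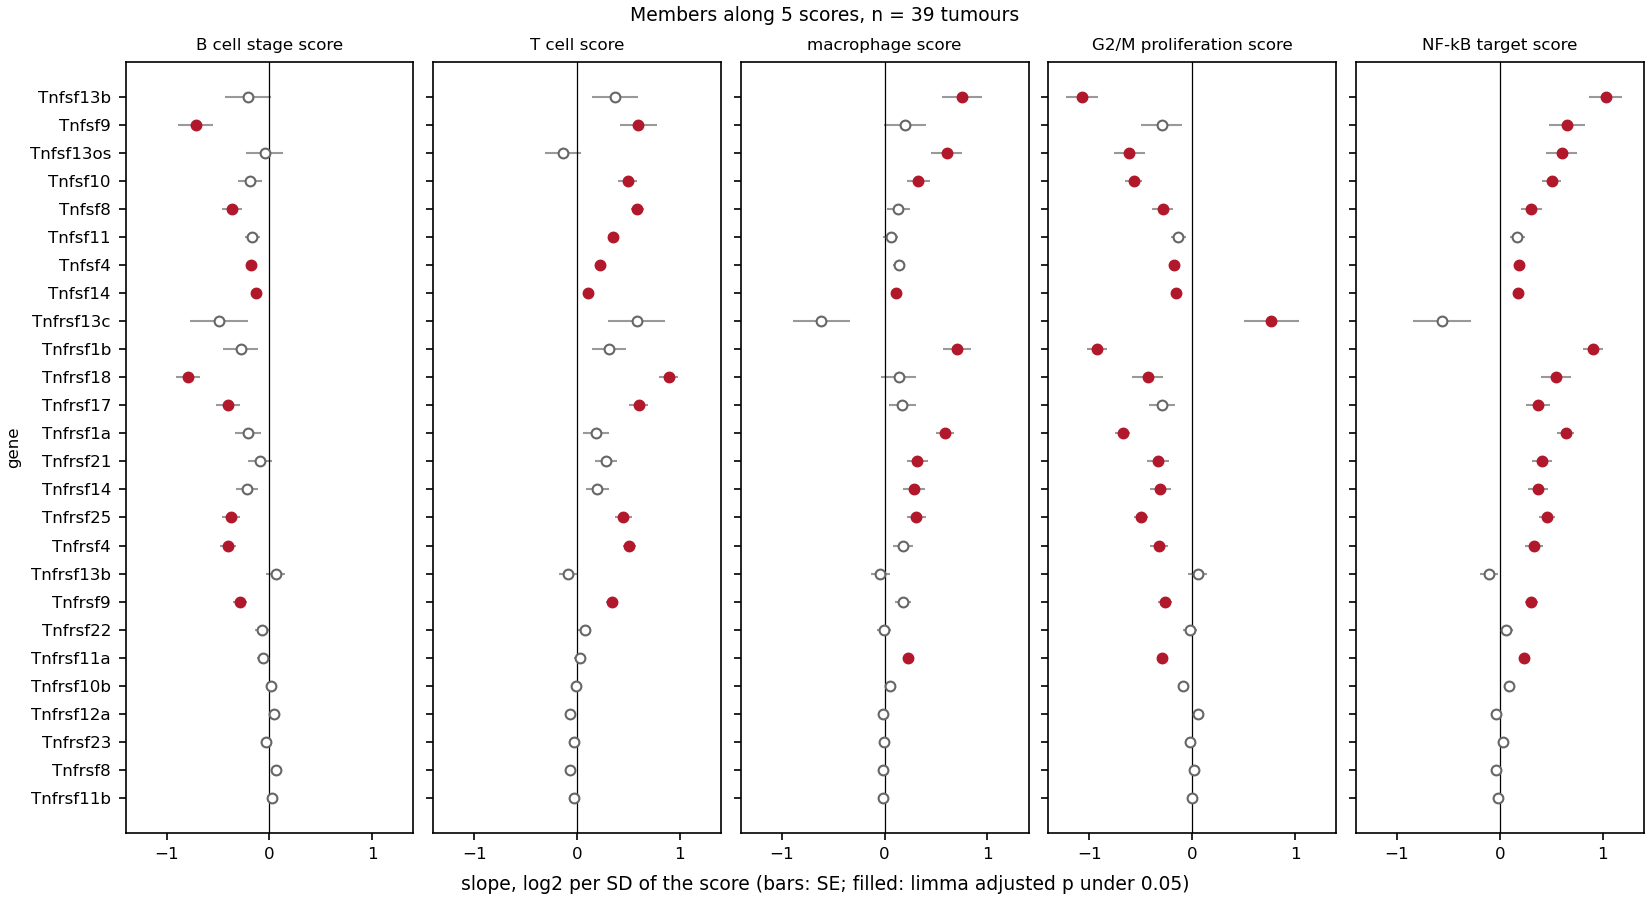
Slope of each member per SD of 5 scores in log2 units (points; bars are SE), n = 39 tumours; filled points passed a limma adjusted p of 0.05. Filled points lie to the right for the T cell, macrophage and NF-kB target scores and to the left for the B cell stage and G2/M proliferation scores, with Tnfrsf13c (0.77 along G2/M proliferation) the exception.

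Along the G2/M proliferation score, built from genes of mitosis, 15 members fell, against 20.2% of all genes, and 1 rose, against 19.8%. The steepest falls were those of Tnfsf13b (−1.07 ± 0.15), Tnfrsf1b (−0.93 ± 0.10, limma adjusted p = 2e-10), Tnfrsf1a (−0.68 ± 0.07), Tnfsf13os (−0.61 ± 0.15) and Tnfsf10 (−0.57 ± 0.08). Tnfrsf25 (−0.50 ± 0.07), Tnfrsf18 (−0.43 ± 0.15), Tnfrsf21, Tnfrsf4, Tnfrsf14, Tnfrsf11a, Tnfsf8, Tnfrsf9, Tnfsf4 and Tnfsf14 also fell. Tnfrsf13c rose (0.77 ± 0.27, limma adjusted p = 0.019), and without the 7 tumours poor in B cell transcripts or Myc its slope was −0.26. In that smaller set 6 members fell, against 8.21% of all genes: Tnfrsf18, Tnfrsf1a, Tnfrsf1b, Tnfrsf25, Tnfsf10 and Tnfsf13os.

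Along a score of NF-kB target genes that holds no family member, 17 of the 26 members rose, against 19.5% of all genes. None fell by limma, at an unadjusted p under 0.05 either, against 21.2% of all genes. The ligands that rose were Tnfsf13b (1.03 ± 0.16), Tnfsf9 (0.66 ± 0.17), Tnfsf10 (0.51 ± 0.09), Tnfsf8 (0.31 ± 0.10), Tnfsf4 (0.19 ± 0.05) and Tnfsf14 (0.18 ± 0.03, limma adjusted p = 4.4e-07), with Tnfsf13os beside them. Among receptors Tnfrsf1b (0.91 ± 0.10, limma adjusted p = 2.4e-09), Tnfrsf1a (0.64 ± 0.08) and Tnfrsf18 (0.55 ± 0.15) were the steepest, followed by Tnfrsf25, Tnfrsf21, Tnfrsf17, Tnfrsf14, Tnfrsf4, Tnfrsf9 and Tnfrsf11a. With the T cell, macrophage and fibroblast scores as covariates 9 members rose, against 10.3% of all genes, and the slopes of Tnfrsf17, Tnfrsf4, Tnfsf4 and Tnfsf8 turned negative without passing the threshold. Tnfrsf13c depended most on the tumours used: its slope was −0.56 ± 0.28 in all 39 (limma adjusted p = 0.11), −0.86 ± 0.27 without tumours 2 and 27 (limma adjusted p = 0.011) and 0.48 ± 0.11 without the 7 tumours poor in B cell transcripts or Myc (limma adjusted p = 0.0022).

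The members called in none of the 5 fits were 7 receptor genes: Tnfrsf13b, Tnfrsf10b, Tnfrsf12a, Tnfrsf8, Tnfrsf11b, Tnfrsf22 and Tnfrsf23. The share of all genes called in none of the 5 fits was not counted, so this number is a description only. All but Tnfrsf13b and Tnfrsf22 had an SD below the median gene. Under other settings Tnfrsf11b was called in 4 of the 5 fits with the mean of its probe sets. Tnfrsf10b was called along the G2/M proliferation and NF-kB target scores, both with covariates and without tumours 2 and 27. Along the NF-kB target score Tnfrsf23 was called with covariates and Tnfrsf8 without the 7 tumours poor in B cell transcripts or Myc.

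**Figure D4:**
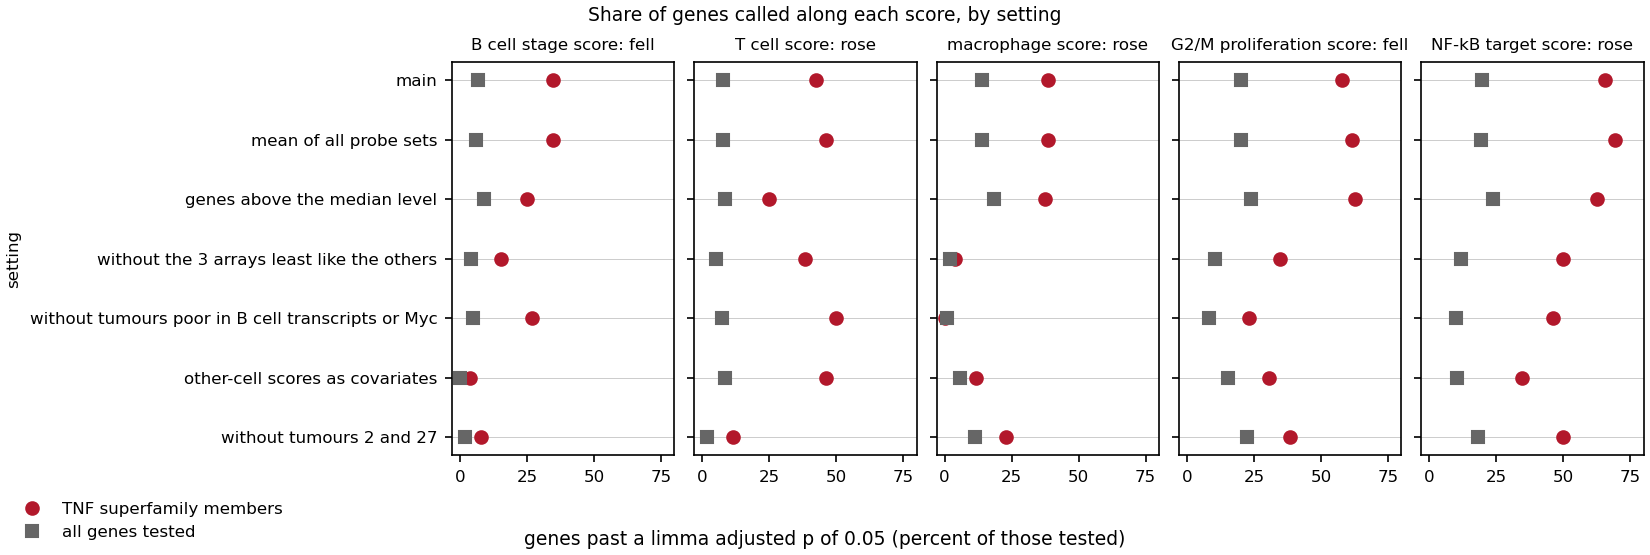
Percent of the tested genes past a limma adjusted p of 0.05 in the direction named above each panel, for the members (red circles) and for all genes (grey squares), under 7 settings. The members' share falls to 0 along the macrophage score without the 7 tumours poor in B cell transcripts or Myc, and to 3.85 percent along the B cell stage score with other-cell scores as covariates.

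Genes of the same superfamily that carry other symbols and the adaptors downstream of the receptors were followed the same way. Of 15 measured superfamily genes under other symbols, 9 rose along the T cell score, against 7.57% of all genes. None fell by limma, against 9.01% of all genes, with 1 negative slope at an unadjusted p under 0.05. The largest slopes were those of Ltb (lymphotoxin beta, 1.19 ± 0.27), Cd27, a receptor of T cells and memory B cells (1.06 ± 0.06, limma adjusted p = 3.2e-16), Lta (lymphotoxin alpha, 0.82 ± 0.13) and the death receptor gene Fas (0.69 ± 0.13). Along the B cell stage score 9 of the 15 fell, against 6.64% of all genes, led by Ltb (−1.21 ± 0.27), Fas, Lta and Cd27. Along the NF-kB target score 11 rose, against 19.5% of all genes. Ltb was at 1.76 ± 0.18 (limma adjusted p = 4e-10), Fas at 0.85 ± 0.11, Lta at 0.62 ± 0.16 and Ltbr, the lymphotoxin beta receptor gene, at 0.60 ± 0.10. Along the macrophage score 7 rose, against 14% of all genes, with Ltb (0.88 ± 0.30), Ltbr (0.56 ± 0.11), Fas and Cd40 the largest. Along the G2/M proliferation score 10 fell, against 20.2% of all genes, with Ltb (−1.41 ± 0.24), Ltbr (−0.63 ± 0.10), Fas and Cd27 the largest. Apart from that 1 gene, no gene of the list had a slope in the other direction at an unadjusted p under 0.05 in any of the 5 fits. Without tumours 2, 6 and 8, or without the 7 tumours, 0 of the 15 rose along the macrophage score by limma, against 2.10 and 0.787% of all genes. At an unadjusted p under 0.05, 1 and 2 of the 15 rose. Without tumours 2 and 27, 2 of the 15 rose along the T cell score, against 1.77% of all genes. With the T cell, macrophage and fibroblast scores as covariates none fell along the B cell stage score by limma, against 0.198% of all genes, with 7 at an unadjusted p under 0.05. With the same covariates 4 rose along the NF-kB target score, against 10.3% of all genes. The list itself was not tested.

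The adaptors and effectors were less uniform. Of 16 measured, 5 rose along the T cell score, against 7.57% of all genes. They were Traf1, an adaptor that is itself induced by NF-kB (1.09 ± 0.08, limma adjusted p = 2.2e-12), Relb of the alternative NF-kB pathway (0.47 ± 0.11), Cflar, an inhibitor of caspase 8 activation (0.30 ± 0.09), Tank (0.29 ± 0.10) and Birc2 (0.29 ± 0.06). Along the NF-kB target score 7 rose and 3 fell, against 19.5 and 21.2% of all genes. Traip, a ubiquitin ligase now known from DNA replication, fell (−0.75 ± 0.08), while Traf1 (0.74 ± 0.15), Tank (0.58 ± 0.05) and Birc3, an inhibitor of apoptosis (0.56 ± 0.06), rose. Along the macrophage score 3 rose and 3 fell (18.75% each), near the 14 and 14.8% of all genes. Along the G2/M proliferation score 3 rose and 7 fell, against 19.8 and 20.2% of all genes, with Traip rising the most there (0.83 ± 0.06, limma adjusted p = 4.1e-15). Along the B cell stage score 6 fell, against 6.64% of all genes, led by Traf1 (−0.79 ± 0.15). Only Traip rose (0.40 ± 0.13), against 9.31% of all genes. Without tumours 2, 6 and 8, none rose or fell along the macrophage score by limma, against 2.10 and 1.11% of all genes. At an unadjusted p under 0.05 there were 2 positive and 4 negative slopes. The same held without the 7 tumours (0.787 and 0.160% of all genes), with 2 positive slopes and 1 negative. Without tumours 2 and 27, 1 adaptor rose along the T cell score and 1 fell along the B cell stage score, against 1.77 and 1.92% of all genes. With other-cell scores as covariates 3 rose along the NF-kB target score, against 10.3% of all genes. None fell along the stage score by limma, against 0.198% of all genes, or at an unadjusted p under 0.05.

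Ligands were then set against their receptors, and receptors of a shared role against each other. Of 28 pairs planned, 23 had both values, and where a gene split the tumours into separate parts the correlation was taken within the largest part, which was so for 9 pairs. By Pearson's r 12 pairs passed after adjustment over the 23, 11 of them positive, but by Spearman's rho only 3 passed. These 3 were Tnfrsf1a with Tnfrsf1b, given above, Tnfrsf4 with Tnfrsf18, and the plasma cell score with Tnfrsf17. Tnfrsf4 and Tnfrsf18, which are neighbours on chromosome 4 with no protein-coding gene between them, had r = 0.750 (permutation adjusted p = 0.00011) and rho = 0.585 (permutation adjusted p = 0.0011, n = 39), and r = 0.517 without tumours 2 and 27. Tnfrsf17 and the plasma cell score had r = 0.646 (permutation adjusted p = 0.00011) and rho = 0.471 (permutation adjusted p = 0.021), and r = 0.424 without tumours 2 and 27.

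Some pairs of costimulatory genes rested on tumours 2 and 27. The ligand gene Tnfsf4 and its receptor gene Tnfrsf4 had r = 0.759 (permutation adjusted p = 0.0017) but rho = 0.183 (permutation adjusted p = 0.41), and r = 0.095 without these tumours. Tnfrsf4 with Tnfrsf9 went from r = 0.815 to 0.393 and Tnfrsf9 with Tnfrsf18 from r = 0.589 to 0.172 when the same 2 tumours were left out. Tnfsf9 and Tnfrsf9, whose proteins bind each other, had r = 0.513 (permutation adjusted p = 0.012) and rho = 0.320 (permutation adjusted p = 0.16) in the 35 tumours with low Tnfsf9. Leaving out tumours 2 and 22 gave an r of 0.366. LIGHT and HVEM (Tnfsf14, Tnfrsf14) had r = 0.482 (permutation adjusted p = 0.0073) and rho = 0.382 (permutation adjusted p = 0.069), and r = 0.402 without tumours 2 and 26. In the 35 tumours with low Tnfsf13b, this gene and Tnfrsf17 had r = 0.404 (permutation adjusted p = 0.023) and rho = 0.418 (permutation adjusted p = 0.069). Each pair in this paragraph passed by r and not by rho.

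A negative relation was computed for 2 of the BAFF receptor genes, Tnfrsf13c and Tnfrsf13b. Within the 36 tumours outside the low Tnfrsf13c part, Tnfrsf13c and Tnfrsf13b had r = −0.483 (permutation adjusted p = 0.0085) and rho = −0.183 (permutation adjusted p = 0.41). Without tumours 5 and 18 r was −0.387. Other pairs of the BAFF system did not pass by either measure: Tnfrsf13c with Tnfrsf17 (r = 0.268 in the same 36 tumours), Tnfrsf13b with Tnfrsf17 (r = −0.035, n = 39) and Tnfsf13b with Tnfrsf13b (r = −0.138 in the 35 tumours with low Tnfsf13b). In the 33 tumours of the higher pan B cell part, Tnfrsf13c had r = 0.483 with the pan B cell score (permutation adjusted p = 0.013) and rho = 0.341 (permutation adjusted p = 0.15). This r was 0.221 without tumours 22 and 32. The p53 target score and Tnfrsf10b, a known p53 target itself, had r = 0.483 (permutation adjusted p = 0.0073) and rho = 0.359 (permutation adjusted p = 0.082), and r = 0.284 without tumours 6 and 8. The pairs of Tnfsf8 with Tnfrsf8, Tnfsf10 with Tnfrsf10b, Tnfsf11 with Tnfrsf11b, and Tnfrsf22 with its chromosomal neighbour Tnfrsf23 did not pass by either measure.

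**Figure D5:**
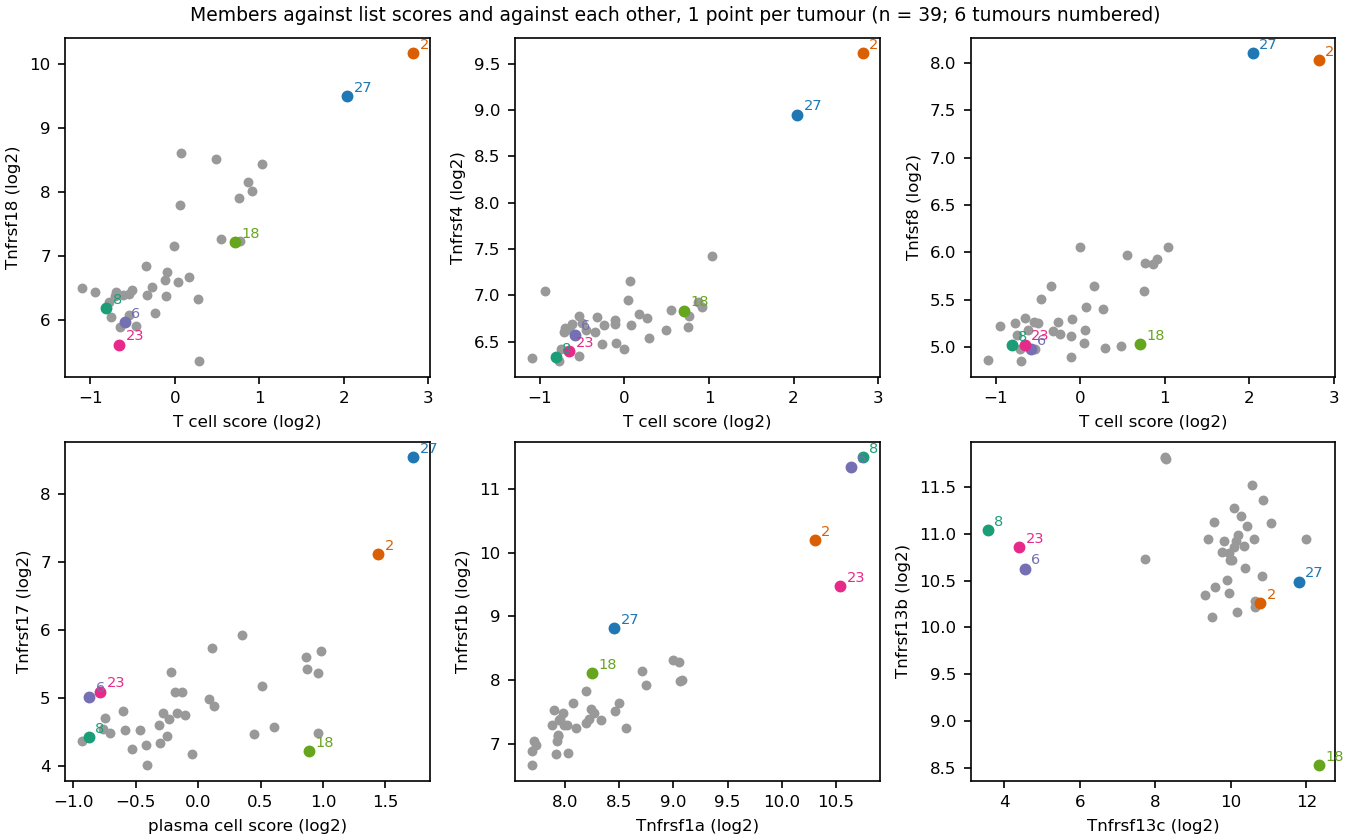
Tnfrsf18, Tnfrsf4 and Tnfsf8 against the T cell score, Tnfrsf17 against the plasma cell score, Tnfrsf1b against Tnfrsf1a, and Tnfrsf13b against Tnfrsf13c (log2 levels and scores, 1 point per tumour, 39 tumours, 6 of them coloured). Tumours 2 and 27 lie apart at the upper right in the first 4 panels, tumours 2, 6, 8 and 23 in the Tnfrsf1b panel, and tumours 6, 8, 23 and 18 stand apart in the last.

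For the 8 members with the widest spread, the 3 genes with the most similar pattern over 39 tumours were listed by Pearson's r, as a description. Tnfrsf13c went with Rev3l (0.911), the B lineage transcription factor gene Ikzf3 (0.892) and Cd79a (0.886). Without the 7 tumours poor in B cell transcripts or Myc these values were 0.685, 0.684 and 0.382. Tnfsf13b went with Csf3r, the receptor gene for the neutrophil growth factor G-CSF (0.907), Acadsb (0.905) and the interferon-induced Ifitm2 (0.904), with 0.606, 0.553 and 0.534 in the smaller set. Tnfrsf1b went with Rras (0.962), Prr5l (0.954) and Rasgef1b (0.953), and Tnfrsf1a with Tbc1d2b (0.968), the receptor tyrosine kinase gene Met (0.953) and Cln8 (0.952). These 6 kept values of 0.774 to 0.872 in the smaller set.

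The genes most similar to Tnfrsf18 were 3 of T cells: Sh2d1a, encoding the adaptor SAP (0.884), Ctla4 (0.870) and Cd28 (0.860), with 0.844, 0.888 and 0.815 in the smaller set. Tnfrsf17 went with Tox (0.849), Ddx43 (0.841) and Edem1, a gene of protein quality control in the endoplasmic reticulum (0.833). Tnfsf9 went with Ramp3 (0.780), Havcr1 (0.771) and Prdm1, the gene of a transcription factor of plasma cells (0.763), with 0.783, 0.759 and 0.823 in the smaller set. Tnfsf13os went with Slc4a3 (0.938), Cfap69 (0.934) and Vnn3 (0.923), which were at 0.347, 0.196 and 0.227. The Tnfsf13os likeness thus came mostly from the 7 tumours left out.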

How the data were processed

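The authors deposited log2 expression values for 45101 probe sets, for which the submitters' processing notes name RMA and affy; neither a version nor a filter is given in the sources used here. The platform annotation names 1 gene for 34958 probe sets, several for 932 and none here for 9211, and 34754 of the first matched a RefSeq table by Entrez ID. For each of 18194 genes the probe set with the highest mean was kept. Slopes along list scores were fitted with limma 3.58.1 (lmFit, eBayes with trend) in R 4.3.3, p-values being adjusted over all genes, and the code was tested on simulated data. Pairs were correlated with numpy 2.4.6, with ranks from scipy 1.17.1 (100000 permutation draws, two-sided, adjusted over 23 pairs), within parts split by mclust 6.1.1 where the gain in BIC exceeded 10 and the smaller part held at least 3 tumours. The members, marker lists (precursor, mature and pan B cell, plasma cell, T cell, macrophage, neutrophil, plasmacytoid dendritic cell, fibroblast, endothelium), process and pathway lists were chosen with earlier results of these data known. All measured members are named; of the 2 pathway lists, the 4 largest called slopes per fit; and for the 8 members with the largest SD, the 3 most similar genes. Alternatives used the mean of all probe sets, genes above the median level, fewer tumours, or other-cell scores as covariates. Leaving out tumours 2 and 27 was chosen after seeing the data. The number of arrays limits the precision. Precursor B cell scores ran from −1.91 to 2.82, mature B cell from −2.65 to 3.15, plasmacytoid dendritic cell from −1.01 to 3.28, p53 target from −0.50 to 0.95, neutrophil from −1.61 to 2.48, endothelium from −0.49 to 0.81 and fibroblast from −1.01 to 1.26.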

Additional observations from a re-analysis of the deposited data

How the results depend on the processing

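With the mean of all probe sets, the member counts along all 5 scores stayed within 1.5 times the values reported, and members with an SD of at least 1 numbered 3. With only genes above the median level, of which 8 were members, 2 fell along the B cell stage score, 2 rose along the T cell score, 3 rose along the macrophage score, 5 fell along the G2/M proliferation score and 5 rose along the NF-kB target score; fewer members were tested here, and the shares of all genes in the same order were 8.90, 8.57, 18.4, 24.0 and 23.7%. Without tumours 2, 6 and 8 these counts were 4, 10, 1, 9 and 13 (all genes 4.17, 5.21, 2.10, 10.5 and 11.7%). None rose along G2/M proliferation by limma, against 15.7% of all genes, or at an unadjusted p under 0.05. In this set 3 members had an SD of at least 1 and 5 pairs were positive. Without the 7 tumours poor in B cell transcripts or Myc the counts were 7, 13, 0, 6 and 12 (all genes 5.05, 7.34, 0.787, 8.21 and 10.1%), of which the 0 became 1 at an unadjusted p under 0.05. None rose along G2/M proliferation by limma, against 13.0% of all genes, or at an unadjusted p under 0.05. Tnfrsf8 (1 member) fell along the NF-kB target score, against 11.5% of all genes, and 1 member had an SD of at least 1. With other-cell scores as covariates the counts were 1, 12, 3, 8 and 9 (all genes 0.198, 8.55, 5.81, 15.2 and 10.3%). Tnfrsf13c (1 member) fell along the NF-kB target score, against 9.39% of all genes, and 5 pairs were positive. Without tumours 2 and 27 the counts were 2, 3, 6, 10 and 13 (all genes 1.92, 1.77, 11.4, 22.3 and 18.1%). Tnfrsf13c (1 member) fell along the macrophage and the NF-kB target scores, against 10.1 and 18.2% of all genes. Without the 2 tumours farthest from the median, 2 pairs were positive and 0 negative by the permutation test of r. The counts of members with an SD of at least 1 in these settings are not set against all genes.

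Slopes that changed sign were, with covariates, Tank (0.0095) and Traip (−0.00191) along the B cell stage score, Tnfsf8 along G2/M proliferation (0.032), and Tnfrsf17 (−0.034), Tnfrsf4 (−0.050), Tnfsf4 (−0.0057) and Tnfsf8 (−0.14) along the NF-kB target score. Without the 7 tumours they were Eda2r (−0.0080), Tnfsf10 (−0.037) and Tnfsf13b (−0.11) along the macrophage score, Tnfrsf13c along G2/M proliferation (−0.26) and Relt along the NF-kB target score (−0.010). The cause was not tested. No paired analysis was possible because all tumours form 1 group. The arrays give no measure of signal over background, so members with a low level and a narrow range cannot be told from members that are not expressed.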
